A study of Arabidopsis thaliana with 12 samples.

Results

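Whole roots of Arabidopsis thaliana Columbia seedlings were compared 24 h after inoculation with Azospirillum brasilense Az39 and 24 h after saline alone. The comparison rested on 4 of the 12 RNA-seq libraries of the series, 2 inoculated with Az39 and 2 given saline, chosen by their labels. In the Az39 group, seedlings on vertical nutrient agar received 2 uL of washed bacteria at an OD595 of 1, suspended in 0.9% saline, 4 days after planting. In the saline group, seedlings of the same age received 2 uL of 0.9% saline. All plants were wild type, kept at 22 °C with 16 h light and 8 h dark a day. Each library pooled at least 50 root systems and is named here replicate 1 or replicate 2 of its group. The other libraries were 2 each of the ipdc mutant of the bacterium at 24 h and of ipdc mutant, Az39 and saline at 7 d. These entered the estimate of the spread between replicates, and the 7 d libraries served for a comparison of times. Because whole roots were pooled, fewer cells of a type and less RNA per cell cannot be told apart.

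Azospirillum brasilense is a soil bacterium that lives on and near root surfaces, fixes nitrogen and promotes plant growth. It makes the auxin indole-3-acetic acid, largely through indole-3-pyruvate decarboxylase, the enzyme that the ipdc gene encodes. In roots, auxin binds TIR1/AFB receptors, which mark Aux/IAA repressors for breakdown and so free ARF transcription factors to act on early targets such as GH3 and IAA genes. Bacteria are also sensed by cell-surface receptors, which start defence responses involving jasmonate, salicylic acid and indole compounds.

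Counts totalled 9665704 and 14289186 in the Az39 libraries, against 18649442 and 21541793 in the saline libraries. Levels are given as CPM, the counts scaled to a common library size. The 9 root identity genes, such as the stem cell niche regulators SHR and SCR, were detected in each library, and made up 0.747% and 0.656% of counts with Az39, against 0.647% and 0.792% with saline. Photosynthesis genes, markers of shoot tissue, made up 0.217% and 0.188% with Az39, against 0.208% and 0.0781% with saline. Seed storage genes made up 0.00154% and 0.128% with Az39, against 0.0281% and 0.00492% with saline, with 5 of the 15 at 0 in Az39 replicate 1 and 1 in saline replicate 2. In the ipdc mutant libraries at 24 h, which stood apart, photosynthesis genes held up to 2.42% and seed storage genes up to 5.11%.

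No gene passed the adjusted edgeR quasi-likelihood test between Az39 and saline roots at 24 h. The test took its estimate of the spread from all 12 libraries. Of 18867 genes tested, 0 passed a Benjamini-Hochberg adjusted p under 0.05 (0% of genes), and the smallest adjusted p was 1. At an unadjusted p under 0.05 there were 249 genes (1.32%), 127 higher (0.673%) and 122 lower (0.647%) with Az39. If no gene differed and p values were evenly spread, a fraction of 0.05 of genes would fall there. The set is smaller than that, so the p values were not evenly spread, and the reason was not tested. Membership in the set does not by itself show a difference. limma-voom also called 0 genes, with 183 at an unadjusted p under 0.05. DESeq2 called 2, the lipid transfer protein gene LTP4 and the lectin gene AT1G52100, both higher with Az39, with 265 at an unadjusted p under 0.05. Below, a log2 fold change is Az39 over saline, the error after ± is its standard error, and n = 2 libraries per group. Each single gene described at 24 h failed the adjusted edgeR test, so differences are given as values.

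**Figure D1:**
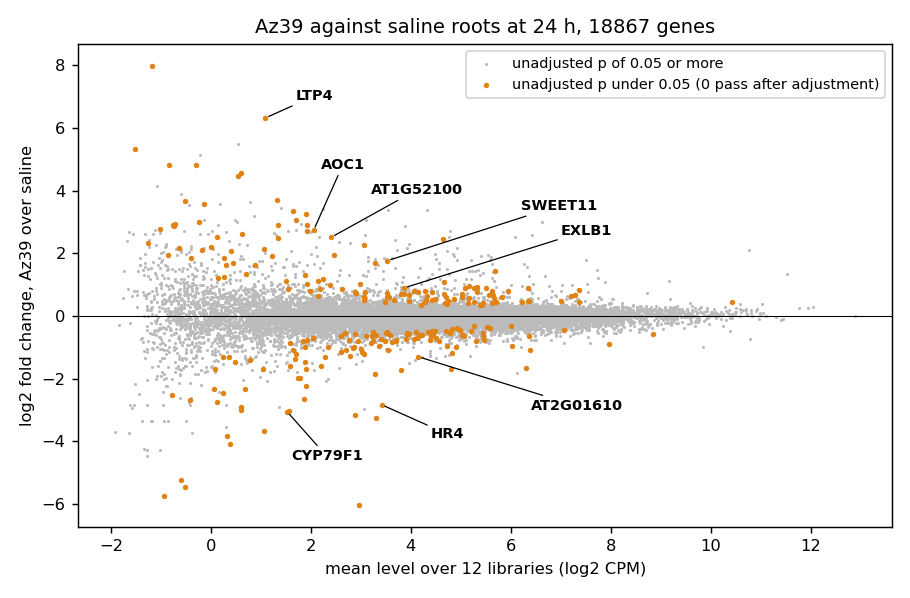
The log2 fold change of Az39 over saline roots at 24 h (vertical axis) is plotted against the mean level over 12 libraries in log2 CPM (horizontal axis), with 1 point per tested gene. The 249 genes at an unadjusted p under 0.05 are in orange. They spread on both sides of 0 at all levels, and 0 passed after adjustment.

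The groups were about as far apart as their own replicates. The median absolute log2 difference over genes was 0.225 between the Az39 replicates and 0.243 between the saline replicates. Between an Az39 and a saline library it was 0.199, 0.267, 0.162 and 0.215 for the 4 pairs. Thus Az39 replicate 2 and saline replicate 1 were closer to each other than either was to its own replicate. More than a 2-fold difference separated the Az39 replicates in 4.07% of genes and the saline replicates in 4.93%, against 2.47% to 5.0% for pairs across the groups. In 2560 genes (13.6%) both Az39 libraries lay above both saline libraries, and in 2098 (11.1%) both lay below.

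How large a difference could have been missed depended on the level of the gene. The 95% interval of the fold change lay wholly within a 2-fold change in either direction for 13215 genes (70.0%). That held for 88.4% of the 7201 genes with a mean log2 CPM of 5 and over, and for 81.3% of the 7142 genes between 3 and 5. It fell to 34.8% of the 2982 genes between 1 and 3 and to 3 of the 1542 genes under 1. Among genes of low level, differences of more than 2-fold could therefore have been missed at this depth and replication.

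LTP4 (AT5G59310) had the smallest unadjusted p of all genes. It encodes a secreted lipid transfer protein, a small protein that binds lipids in the cell wall and is known from responses to drought and abscisic acid. It stood at 5.25 and 15.04 CPM with Az39, against 0.103 and 0.135 CPM with saline. Both inoculated libraries were high and the groups were far from overlapping. The saline values came from 2 and 3 reads, so the ratio of summed levels, 93.0, has a 95% counting interval of 39.4 to 289. That interval leaves out the spread between replicates. The fitted log2 fold change was 6.32 ± 1.04 (adjusted p = 1 by edgeR), and DESeq2 gave an adjusted p of 2.9e-05. With the ipdc mutant, against the same saline libraries, LTP4 had 0.284 and 2.65 CPM. At 7 d it had 0.413 and 0.749 CPM with Az39, against 0.0517 and 0.148 CPM with saline.

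LTP3 (AT5G59320), the neighbour of LTP4 on chromosome 5, is read in the opposite direction from its own start. It had 46.4 and 108 CPM with Az39, against 50.6 and 52.3 CPM with saline. Only Az39 replicate 2 stood out, the groups overlapped, and the log2 fold change was 0.59 ± 0.49. All 9 tested genes of the lipid transfer protein list stood above 0, against 50.3% of all genes, with a median of 0.52 against 0.00 over all genes. Without Az39 replicate 2, in which LTP3, LTP6 and LTP10 were highest, that median was -0.10. In 3 of the 9 genes both Az39 libraries lay above both saline libraries (13.6% over all genes). Besides LTP4 these were LTP10 and LTP1, with unadjusted p of 0.18 and 0.22 by edgeR. LTP1 had 83.8 and 84.2 CPM with Az39, against 61.8 and 39.8 CPM with saline. The list was chosen with earlier results of these data known, so its counts are no test of the family.

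AT1G52100 encodes a mannose-binding lectin of the jacalin family, whose members bind sugars and include defence and myrosinase-binding proteins. It had 13.0 and 5.31 CPM with Az39, against 1.95 and 1.21 CPM with saline. The groups did not overlap, and the log2 fold change was 2.52 ± 0.46 (adjusted p = 1 by edgeR, and adjusted p = 0.00443 by DESeq2). With the ipdc mutant at 24 h, against the same saline libraries, it had 11.3 and 14.2 CPM. At 7 d it had 2.59 and 2.43 CPM with Az39, against 3.82 and 3.15 CPM with saline.

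The promoters of LTP4 and LTP3 are shown so that the gene with the smallest p can be read beside a neighbour whose groups overlapped. Each run is the 250 bases before the annotated start, 5′ to 3′ on the strand of the gene, from RefSeq (TAIR10.1). Capitals mark the matches to 4 motifs searched on both strands, the abscisic acid response element core ACGTG, the G-box CACGTG, which contains it, the W-box core TTGAC and the auxin response element TGTCTC. The window of LTP4 lies at chr5:23925958-23926207 on the minus strand and that of LTP3 at chr5:23928704-23928953 on the plus strand.
LTP4: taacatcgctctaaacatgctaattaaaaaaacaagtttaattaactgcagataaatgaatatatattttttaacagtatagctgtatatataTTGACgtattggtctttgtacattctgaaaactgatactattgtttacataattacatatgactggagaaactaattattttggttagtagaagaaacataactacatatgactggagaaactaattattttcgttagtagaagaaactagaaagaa
LTP3: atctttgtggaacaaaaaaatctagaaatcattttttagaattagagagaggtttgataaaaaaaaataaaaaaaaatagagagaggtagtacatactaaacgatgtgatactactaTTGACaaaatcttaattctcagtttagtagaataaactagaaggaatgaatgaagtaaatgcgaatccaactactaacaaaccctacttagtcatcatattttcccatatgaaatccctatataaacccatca
LTP4 and LTP3 held 1 W-box core each and none of the other motifs. Over 27443 promoter windows of this length, 22.9% held ACGTG, 6.49% CACGTG, 44.9% TTGAC and 10.9% TGTCTC. Among the 12 highest genes at an unadjusted p under 0.05, 7 held ACGTG, 3 CACGTG, 6 TTGAC and 0 TGTCTC. Among the 12 lowest, 2 held ACGTG, 0 CACGTG, 9 TTGAC and 0 TGTCTC. These matches are descriptions of the letters, not of binding.

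AT1G52100 belongs to a row of lectin genes on chromosome 1, and its neighbours differed in their values. AT1G52000 had 11.21 and 4.29 CPM with Az39, against 1.75 and 0.314 CPM with saline (2.91 ± 1.22). The myrosinase-binding protein gene MBP1 (AT1G52040) had 10.9 and 1.43 CPM with Az39, against 0.514 and 0 CPM with saline. Its groups did not overlap, but Az39 replicate 1 stood far above the rest (4.58 ± 1.39). From summed counts the ratio was 21.7, with a counting interval of 11.4 to 46.4. AT1G52050, AT1G52060 and AT1G52070 overlapped between the groups, for example AT1G52070 at 14.1 and 2.25 CPM with Az39, against 9.72 and 4.58 CPM with saline. In 4 of the 14 lectin genes tested the unadjusted p was under 0.05 with a higher level (0.673% over all genes), the fourth being JAL23, seen almost only in Az39 replicate 1. The 4 include AT1G52100 itself, and the list was chosen with earlier results of these data known. The count is therefore no test of the family. The abundant lectins that join the PYK10 complex of root cells were even, such as PBP1 at 1613 and 1406 CPM with Az39, against 1162 and 1802 CPM with saline. The lectin genes of this row resemble each other, so the split of their reads is uncertain.

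Of the other 8 genes with the 10 smallest unadjusted p values, 6 stood higher with Az39. SWEET11 (AT3G48740), a sucrose exporter known from phloem loading, had 12.8 and 14.6 CPM with Az39, against 5.04 and 3.05 CPM with saline (1.76 ± 0.45). With the ipdc mutant it had 14.3 and 21.8 CPM. EXLB1 (AT4G17030), an expansin-like cell wall protein, had 18.4 and 26.5 CPM with Az39, against 11.7 and 12.5 CPM with saline. IPMI2 (AT2G43100), an isopropylmalate isomerase subunit of leucine and glucosinolate synthesis, had 68.0 and 57.8 CPM with Az39, against 33.1 and 31.2 CPM with saline (0.97 ± 0.25). In each of these genes both Az39 libraries lay above both saline libraries. The lipase-like gene AT3G16370 had 35.4 and 46.7 CPM with Az39, against 24.9 and 18.8 CPM with saline (0.91 ± 0.23). ATC (AT2G27550), related to the flowering repressor TFL1, had 14.5 and 7.89 CPM with Az39, against 2.37 and 3.36 CPM with saline (1.95 ± 0.51). AT4G00780, a TRAF-like gene, was low throughout, at 3.09 and 1.36 CPM with Az39, against 0.36 and 0.404 CPM with saline.

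Only 2 of the 10 stood lower with Az39. AT2G01610, of the invertase and pectin methylesterase inhibitor family, had 11.1 and 8.03 CPM with Az39, against 28.1 and 18.8 CPM with saline. AT4G30410, annotated as a DNA-binding transcription factor, had 6.69 and 5.38 CPM with Az39, against 11.8 and 10.3 CPM with saline (-0.87 ± 0.23). Both were also low with the ipdc mutant, AT2G01610 at 3.5 and 6.98 CPM and AT4G30410 at 4.26 and 5.66 CPM. At 7 d AT2G01610 had 23.5 and 29.0 CPM with Az39, against 22.0 and 24.6 CPM with saline.

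**Figure D2:**
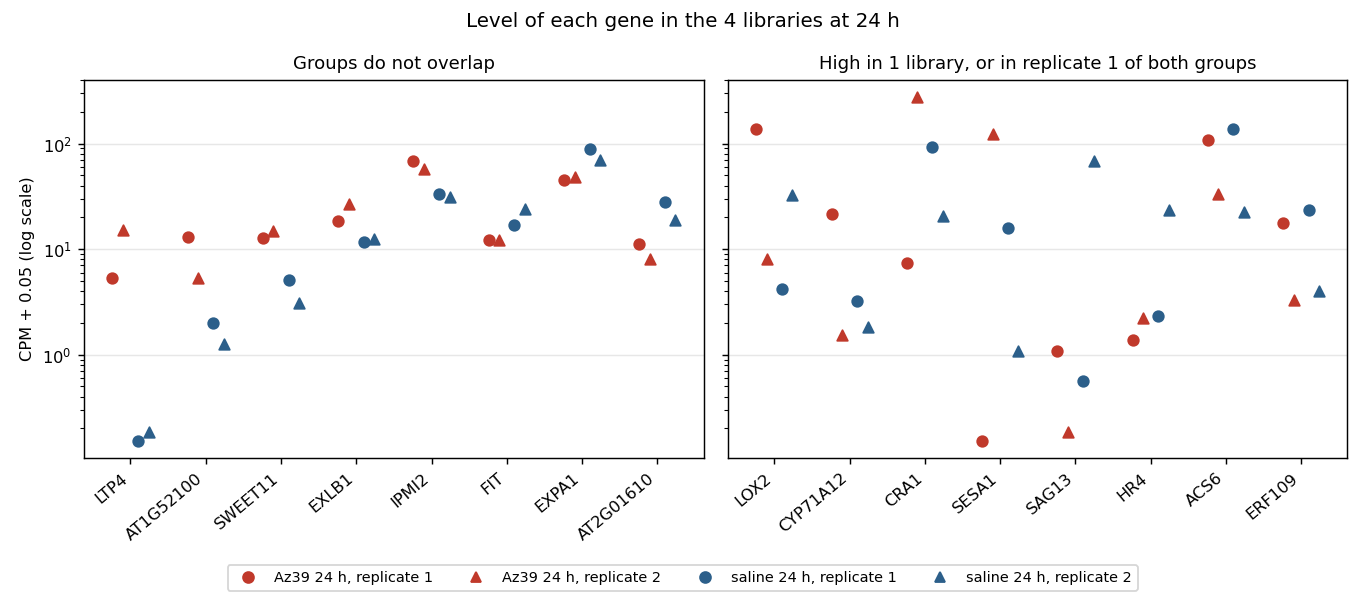
The level of 16 genes is plotted in each of the 4 libraries at 24 h, as CPM plus 0.05 on a log scale, with Az39 in red, saline in blue, circles for replicate 1 and triangles for replicate 2. On the left the groups do not overlap, as for LTP4 at 5.25 and 15.04 CPM with Az39, against 0.103 and 0.135 CPM with saline. On the right 1 library is high, as for SAG13 at 68.2 CPM in saline replicate 2, or replicate 1 of both groups is high, as for ACS6.

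The largest fold changes among genes at an unadjusted p under 0.05 were in genes of low level, and several leaned on 1 library. COR15A (AT2G42540), a cold-regulated chloroplast protein, had 9.05 and 6.46 CPM with Az39, against 1.39 and 0.135 CPM with saline, where replicate 2 held 3 reads (3.36 ± 1.38). In the abscisic acid and dehydration list, to which it belongs, 14 of 21 genes lay below 0 and COR15A was the one at an unadjusted p under 0.05. FUM2 (AT5G50950), a cytosolic fumarase, had 5.76 and 7.42 CPM with Az39, against 0.411 and 1.12 CPM with saline (3.08 ± 0.94). LHCB2.3, a light-harvesting protein, had 19.0 and 11.7 CPM with Az39, against 4.37 and 1.26 CPM with saline (2.45 ± 0.99). Over the 29 photosynthesis genes listed, which exclude LHCB2.3, 26 stood above 0 (50.3% over all genes), with a median of 0.56. In 14 of the 29 both Az39 libraries lay above both saline libraries (13.6% over all genes). The median was 0.09 without saline replicate 2, the library with the smallest photosynthesis share. The part of shoot transcripts in the COR15A, FUM2 and LHCB2.3 values was not tested. AT2G47780 (3.71 ± 1.31), the subtilase gene SBT3.3 (2.72 ± 1.14) and the peroxidase gene AT5G19890 (2.14 ± 0.75) were higher at 0.544 to 2.68 CPM with Az39, against 0.0449 to 0.463 CPM with saline. Without Az39 replicate 1, SBT3.3 was at 1.33 and AT5G19890 at 0.89.

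Among the lowest fold changes, CYP79F1 (AT1G16410), a cytochrome P450 at the entry to aliphatic glucosinolates, had 0.412 and 0.136 CPM with Az39, against 3.5 and 0.852 CPM with saline (-3.05 ± 0.94). The ratio of summed counts was 0.118, with a counting interval of 0.0421 to 0.267 that leaves out the spread between replicates. The RPW8 resistance homolog HR4 (AT3G50480) had 1.34 and 2.18 CPM with Az39, against 2.26 and 23.3 CPM with saline. The groups only just failed to overlap, and without saline replicate 2 the log2 fold change of -2.83 was -0.36. The calcium-binding gene AT2G41090, at -1.98, was at -0.42 without that library. PRF4 (AT4G29340), an actin-binding profilin, had 0.926 and 1.29 CPM with Az39, against 2.62 and 2.96 CPM with saline (-1.31 ± 0.38). ACS7, an enzyme of ethylene synthesis, had 2.16 and 1.02 CPM with Az39, against 2.31 and 6.33 CPM with saline (-1.48 ± 0.60), and was at -0.60 without saline replicate 2. The boundary gene LSH4 (-1.58), AT5G54710 (-2.66), AT3G13950 (-1.86), AT1G61550 (-1.59), AT5G22270 (-1.28) and AT5G52390 (-1.22) made up the rest of the 12 beside AT2G01610. Without saline replicate 2, AT5G54710 was at -1.42, AT3G13950 at -1.08 and AT5G22270 at -0.41. Without saline replicate 1, AT5G52390 was at -0.58 and CYP79F1 at -1.72. Without Az39 replicate 1, LSH4 was at -1.05.

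Small groups of genes were high in 1 library alone, and the examples were chosen after their values were seen. Genes over 4-fold above each of the other 3 libraries numbered 11 in Az39 replicate 1 (0.0583% of genes tested) and 18 in Az39 replicate 2 (0.0954%), against 2 in saline replicate 1 (0.0106%) and 21 in saline replicate 2 (0.111%). In Az39 replicate 1 these included genes of jasmonate synthesis and of indole defence. The lipoxygenase gene LOX2 had 137 and 8.03 CPM with Az39, against 4.11 and 32.8 CPM with saline. The allene oxide cyclase gene AOC2 had 30.04 and 5.44 CPM with Az39, against 3.6 and 4.53 CPM with saline. AOC1, its neighbour, had 9.05 and 1.77 CPM with Az39, against 0.772 and 0.808 CPM with saline, the one jasmonate gene at an unadjusted p under 0.05 (2.74 ± 0.75, and 1.16 without Az39 replicate 1). CYP71A12, of the camalexin pathway, had 21.5 and 1.5 CPM with Az39, against 3.19 and 1.79 CPM with saline. The acetyltransferase gene NATA1 had 12.7 and 0.136 CPM with Az39, against 0 and 1.35 CPM with saline. In each case the second Az39 library lay among or near the saline libraries. AOC1 and AOC2 are close copies, so the split of reads between them is uncertain.

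In Az39 replicate 2 the high genes included those of seed reserves. The storage globulin gene CRC had 4.94 and 261 CPM with Az39, against 49.5 and 12.9 CPM with saline. SESA1, a storage albumin, had 0.103 and 124 CPM with Az39, against 15.9 and 1.03 CPM with saline. All 15 seed storage genes stood above 0 (median 1.98), and without Az39 replicate 2 the median was -3.76. Dehydration genes that seeds also use followed the same libraries, such as RAB18 at 2.57 and 45.5 CPM with Az39, against 17.59 and 3.59 CPM with saline.

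In saline replicate 2 the high genes included those of salicylic acid and senescence. SAG13, a senescence gene, had 1.03 and 0.136 CPM with Az39, against 0.514 and 68.2 CPM with saline. PBS3, which makes the salicylic acid precursor conjugate, had 0.514 and 0.272 CPM with Az39, against 0.411 and 5.34 CPM with saline. The flagellin-induced kinase gene FRK1, at 3.7-fold over the next library just under that threshold, had 0.823 and 1.22 CPM with Az39, against 0.823 and 5.88 CPM with saline. PR1, a marker of salicylic acid responses, was too low to be tested, with 0 and 1 reads with Az39, against 0 and 136 reads with saline. The terpene synthase gene TPS-CIN had 3.29 and 4.08 CPM with Az39, against 1.8 and 68.7 CPM with saline. The anthocyanin enzyme gene DFR had 2.88 and 2.99 CPM with Az39, against 1.23 and 18.21 CPM with saline.

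A further group was high in replicate 1 of both treatments. The ethylene synthesis gene ACS6 had 108 and 33.5 CPM with Az39, against 137 and 22.3 CPM with saline. The transcription factor gene ERF109, known from jasmonate and wounding, had 17.7 and 3.27 CPM with Az39, against 23.2 and 3.99 CPM with saline. WRKY40 had 22.0 and 5.04 CPM with Az39, against 27.0 and 5.79 CPM with saline. The touch-induced wall gene XTH22 had 35.5 and 10.4 CPM with Az39, against 40.1 and 10.4 CPM with saline, and the jasmonate regulators MYC2 and JAZ1 split the same way. For these genes the replicates of a group lay apart, and same-numbered libraries of the groups lay together.

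Most auxin perception and early response genes differed by less than 2-fold within their intervals. Of 22 tested genes of the list, 9 stood above 0 (median -0.025), 0 passed, and 17 had a 95% interval within 2-fold (77.3%, against 70.0% of all genes). The receptor gene TIR1 had 103 and 92.4 CPM with Az39, against 110 and 89.4 CPM with saline. The Aux/IAA repressor gene IAA2 had 38.5 and 45.7 CPM with Az39, against 44.7 and 44.3 CPM with saline. The auxin-conjugating enzyme gene GH3.5 had 21.5 and 30.1 CPM with Az39, against 29.4 and 24.0 CPM with saline, and GH3.6 had 20.7 and 20.8 CPM, against 22.8 and 19.2 CPM. For the activating factors, ARF19 had 27.0 and 23.3 CPM with Az39, against 25.5 and 24.99 CPM with saline.

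The auxin genes farthest above 0 were low in level. IAA6 (AT1G52830) had 2.88 and 2.59 CPM with Az39, against 1.18 and 0.583 CPM with saline, with an unadjusted p under 0.05 (1.63 ± 0.53). IAA5 had 0.926 and 0.681 CPM with Az39, against 0.309 and 0.179 CPM with saline, from 4 to 10 reads a library. IAA19 had 10.1 and 9.39 CPM with Az39, against 7.72 and 7.27 CPM with saline. In these 3 of the 22 genes tested both Az39 libraries lay above both saline libraries. Over all genes that held for 13.6%, so the count is near the share over all genes. The intervals of IAA5, IAA6, GH3.3 and IAA29 reached beyond 2-fold upward, to 3.46, 2.81, 1.89 and 1.09 on the log2 scale, so larger differences in them were not bounded by these data. GH3.3 had 8.03 and 3.4 CPM with Az39, against 3.75 and 4.04 CPM with saline, and its groups overlapped.

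**Figure D3:**
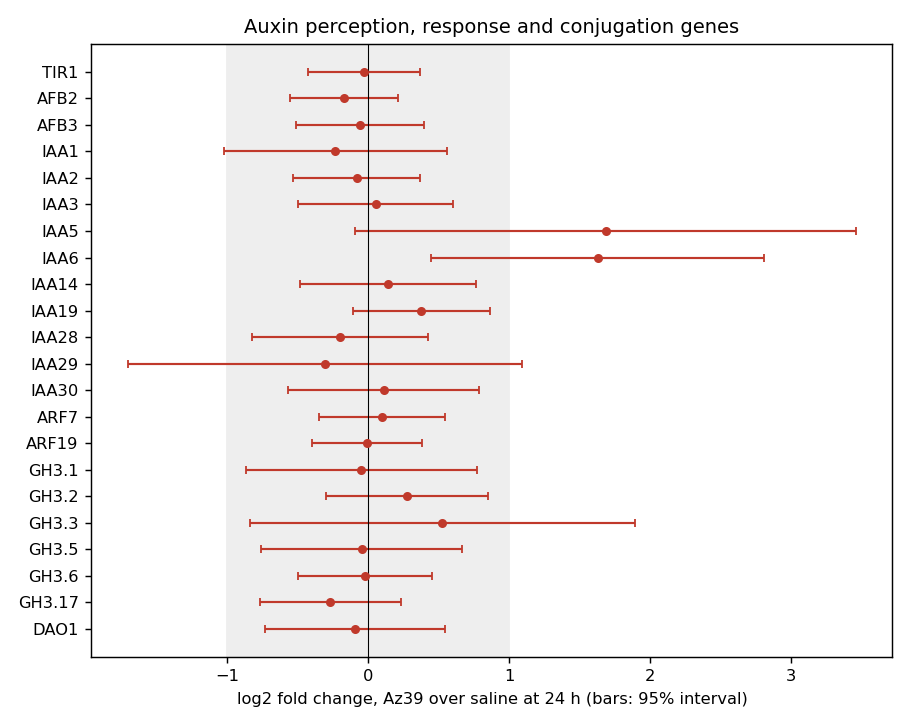
The log2 fold change of Az39 over saline at 24 h (horizontal axis) is given for the 22 tested auxin perception, response and conjugation genes, with bars for the 95% interval from the edgeR fit and a grey band for changes within 2-fold. The bars of 17 genes lie inside the band, and IAA6 is the one gene whose bar leaves out 0.

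Of 13 auxin transport genes tested, 12 stood above 0 (median 0.11), and 12 had an interval within 2-fold (92.3%). The groups overlapped for the influx carrier gene AUX1, at 103 and 74.4 CPM with Az39, against 80.2 and 94.8 CPM with saline. The groups did not overlap for LAX1, also an influx carrier gene, at 11.8 and 11.7 CPM with Az39, against 8.9 and 8.97 CPM with saline. Without Az39 replicate 1 the median of the list was -0.06.

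Lateral root genes, many of them low, were not separated from saline. LBD16, a regulator of lateral root initiation, had 5.76 and 11.4 CPM with Az39, against 5.76 and 8.84 CPM with saline. GATA23, which marks founder cells, had 1.54 and 1.09 CPM with Az39, against 1.03 and 1.57 CPM with saline. Of 14 tested genes 9 stood above 0 (median 0.04), and 3 had an interval within 2-fold (21.4%). One member stood lower at an unadjusted p under 0.05, the wall-loosening expansin gene EXPA1 (AT1G69530), at 45.2 and 48.0 CPM with Az39, against 88.3 and 69.9 CPM with saline (-0.76 ± 0.23). In the list of expansins and wall loosening, which also holds EXPA1 and EXLB1, 2 of 13 stood above 0 (median -0.14). Of 15 root hair genes 11 stood above 0 (median 0.11, but -0.48 without Az39 replicate 1), with the regulator RSL4 at 2.68 and 0.885 CPM with Az39, against 1.44 and 1.3 CPM with saline.

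Of 25 cell cycle genes tested, 0 passed, 21 stood above 0 (50.3% over all genes), with a median of 0.14, and in 8 both Az39 libraries lay above both saline libraries (13.6% over all genes). CDKB1;1, a kinase of the entry into mitosis, had 38.5 and 37.0 CPM with Az39, against 25.8 and 28.8 CPM with saline, the one member at an unadjusted p under 0.05 (0.47 ± 0.17). The mitotic cyclin gene CYCB1;3 had 55.9 and 54.4 CPM with Az39, against 43.2 and 43.4 CPM with saline. The cell cycle inhibitor gene KRP1 lay the other way, at 2.68 and 3.47 CPM with Az39, against 4.42 and 8.12 CPM with saline. For 23 genes the interval lay within 2-fold (92.0%), and without saline replicate 2 the median was -0.03.

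Of 15 xylem secondary wall genes tested, 0 passed the adjusted test, and 14 lay above 0 (50.3% over all genes), with a median of 0.37. Without Az39 replicate 1 the median was 0.04. In 5 genes both Az39 libraries lay above both saline libraries (13.6% over all genes), and 3 stood higher at an unadjusted p under 0.05 (0.673% over all genes). These were the cellulose synthase genes CESA4 and CESA7 and the xylan synthesis gene IRX9. CESA4 had 31.6 and 23.3 CPM with Az39, against 16.9 and 19.0 CPM with saline (0.61 ± 0.19). CESA7 had 29.2 and 24.2 CPM with Az39, against 18.4 and 18.6 CPM with saline (0.53 ± 0.17). IRX9 had 9.57 and 6.81 CPM with Az39, against 5.61 and 5.7 CPM with saline (0.53 ± 0.23). The same Az39 library, replicate 1, was the higher of the pair in all 3. At 7 d the median was -0.20, and 1 of the 15 genes was called lower (1.34% over all genes).

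Suberin and Casparian strip genes of the endodermis were split by saline replicates more than by treatment. ASFT, a suberin feruloyl transferase gene, had 145 and 117 CPM with Az39, against 87.3 and 224 CPM with saline. ABCG6, a suberin transporter gene, had 74.0 and 60.4 CPM with Az39, against 39.7 and 147 CPM with saline. The Az39 libraries lay between both saline libraries in each. Of 16 genes 3 stood above 0 (median -0.20), and the median was 0.62 without saline replicate 2 and -0.72 without saline replicate 1.

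**Figure D4:**
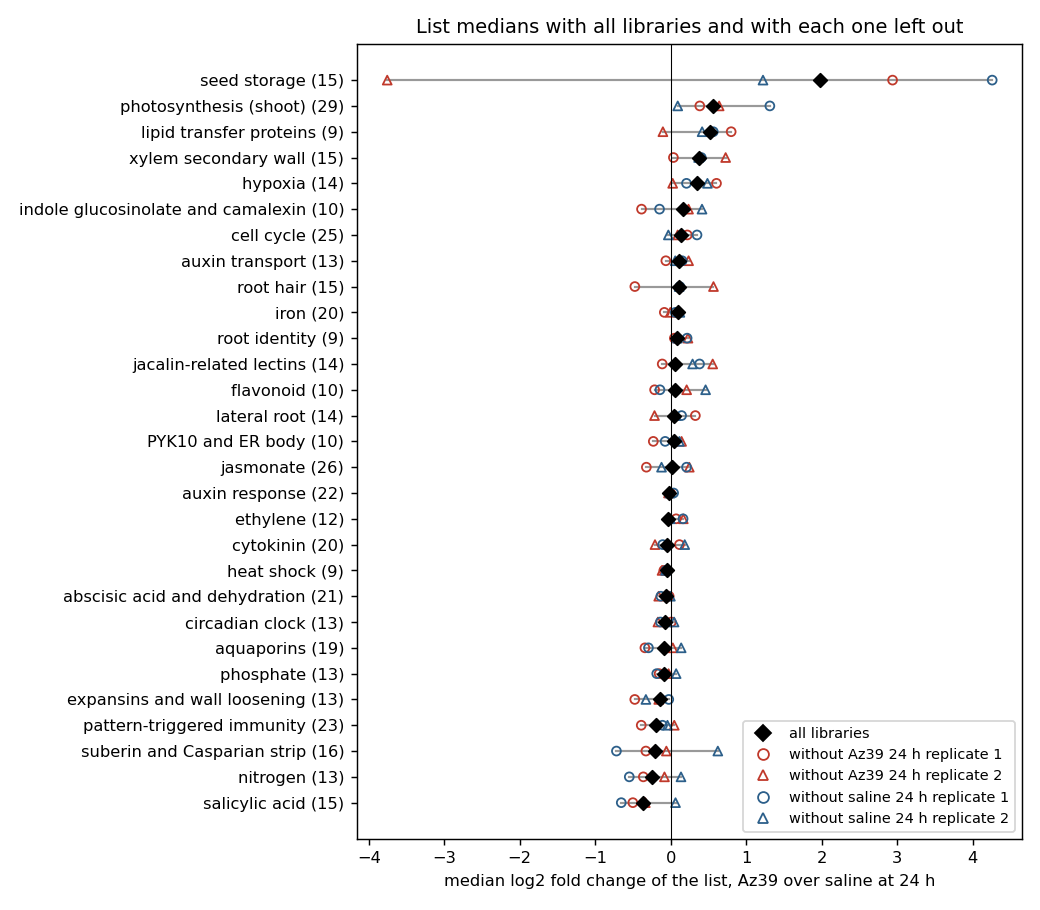
The median log2 fold change of Az39 over saline at 24 h (horizontal axis) is shown for 29 gene lists, with the number of tested genes in brackets, for all libraries (black) and with each of the 4 libraries left out (open symbols). Seed storage runs between -3.76 and 4.26, and the auxin response median stays between -0.03 and 0.04.

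Salicylic acid and immunity genes mostly stood below 0. Of 15 salicylic acid genes tested 1 stood above 0 (median -0.37), and without saline replicate 2 the median was 0.06. EDS1, a hub of resistance signalling, was even at 30.9 and 24.2 CPM with Az39, against 23.1 and 26.6 CPM with saline, as was the receptor regulator NPR1 at 27.1 and 30.9 CPM, against 24.6 and 35.4 CPM. Of 23 genes of pattern-triggered immunity 4 stood above 0 (median -0.19, and between -0.39 and 0.05 with 1 library left out). FRK1, high in saline replicate 2 alone, was the one at an unadjusted p under 0.05. The co-receptor gene BAK1 had 70.7 and 60.0 CPM with Az39, against 64.2 and 71.8 CPM with saline, and the oxidase gene RBOHD had 45.0 and 38.2 CPM, against 42.1 and 44.5 CPM. The flagellin receptor gene FLS2 was low, at 0.412 and 0.408 CPM with Az39, against 0.463 and 1.35 CPM with saline.

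Indole glucosinolate genes overlapped between the groups, with CYP79B2, which makes the shared indole precursor, at 285 and 201 CPM with Az39, against 170 and 205 CPM with saline. The list had 6 of 10 genes above 0 (median 0.17, but -0.39 without Az39 replicate 1). PYK10, the beta-glucosidase of root ER bodies, had 7124 and 6158 CPM with Az39, against 5946 and 7384 CPM with saline. Its list had 6 of 10 genes above 0 (median 0.04).

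Nutrient genes showed few differences. FIT (AT2G28160), the master regulator of iron uptake, stood lower at an unadjusted p under 0.05, at 12.244 and 12.05 CPM with Az39, against 16.9 and 24.2 CPM with saline (-0.76 ± 0.20). At 7 d FIT fell with Az39 relative to saline (log2 fold change -1.43, adjusted p = 0.011 by edgeR). The iron transporter gene IRT1, a target of FIT, had 19.8 and 12.05 CPM with Az39, against 14.6 and 15.8 CPM with saline at 24 h. The aquaporin gene TIP2;3 had 25.3 and 24.2 CPM with Az39, against 38.5 and 66.8 CPM with saline (-1.09 ± 0.34), and it was called lower at 7 d (-1.44, adjusted p = 0.0465). FIT and TIP2;3 were the members of the iron and aquaporin lists at an unadjusted p under 0.05. PHT1;9, a phosphate transporter gene, had 0.412 and 0.272 CPM with Az39, against 0.874 and 0.987 CPM with saline (-1.46 ± 0.60).

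Of 13 nitrogen genes 2 stood above 0 (median -0.25), and without saline replicate 2 the median was 0.14. The nitrate transporter gene NRT2.1 had 48.0 and 19.8 CPM with Az39, against 20.8 and 59.5 CPM with saline. The ammonium transporter gene AMT1;2 had 157 and 141 CPM with Az39, against 110 and 253 CPM with saline. In both genes the Az39 libraries lay within or near the range of the saline libraries.

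The ethylene synthesis gene ACO1, which encodes an ACC oxidase, stood higher at an unadjusted p under 0.05. It had 14.8 and 14.6 CPM with Az39, against 10.3 and 10.18 CPM with saline (0.52 ± 0.22). The replicates of each group nearly coincided. Of 12 ethylene genes 5 stood above 0 (median -0.03). Of 14 hypoxia genes 12 stood above 0 (median 0.34, but 0.03 without Az39 replicate 2), such as SUS4, a sucrose synthase gene, at 8.33 and 8.51 CPM with Az39, against 4.17 and 6.64 CPM with saline. Cytokinin, circadian clock, heat shock, flavonoid and phosphate lists had medians between -0.09 and 0.06.

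The later comparison differed in extent. At 7 d, 696 genes (3.69%) passed the same test between Az39 and saline, 444 higher (2.35%) and 252 lower (1.34%). Of the 444, 228 stood above 0 at 24 h, with a median of 0.006 at 24 h, against 1.47 at 7 d. Of the 252, 176 stood below 0 at 24 h, with a median of -0.103 at 24 h, against -1.23 at 7 d. Of the 249 genes at an unadjusted p under 0.05 at 24 h, 21 were called at 7 d, 10 of them in the same direction. The times have separate saline libraries.

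Of 26 jasmonate genes tested, 14 stood above 0 at 24 h (median 0.01), 0 passed, and the values ran between -1.27 and 2.74. Only 6 had a 95% interval within 2-fold at 24 h (23.1%, against 70.0% of all genes), so larger differences in most of them were not bounded. At 7 d the median was 2.62 with 11 called higher (2.35% over all genes). The repressor gene JAZ10 had 6.89 and 3.54 CPM with Az39, against 4.83 and 4.35 CPM with saline at 24 h. At 7 d it rose to 193 and 326 CPM with Az39, against 6.97 and 1.92 CPM with saline (log2 fold change 5.87, adjusted p = 0.00542 by edgeR). The synthesis enzyme gene OPR3 had 43.9 and 29.6 CPM with Az39 at 24 h, against 40.5 and 34.8 CPM with saline. AOC1 stood above 0 at both times, at 2.74 at 24 h and 5.70 at 7 d (adjusted p = 0.0132 by edgeR). The difference between the times was tested itself, and 0 jasmonate genes passed, with JAZ10 at an adjusted p of 0.0582.

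**Figure D5:**
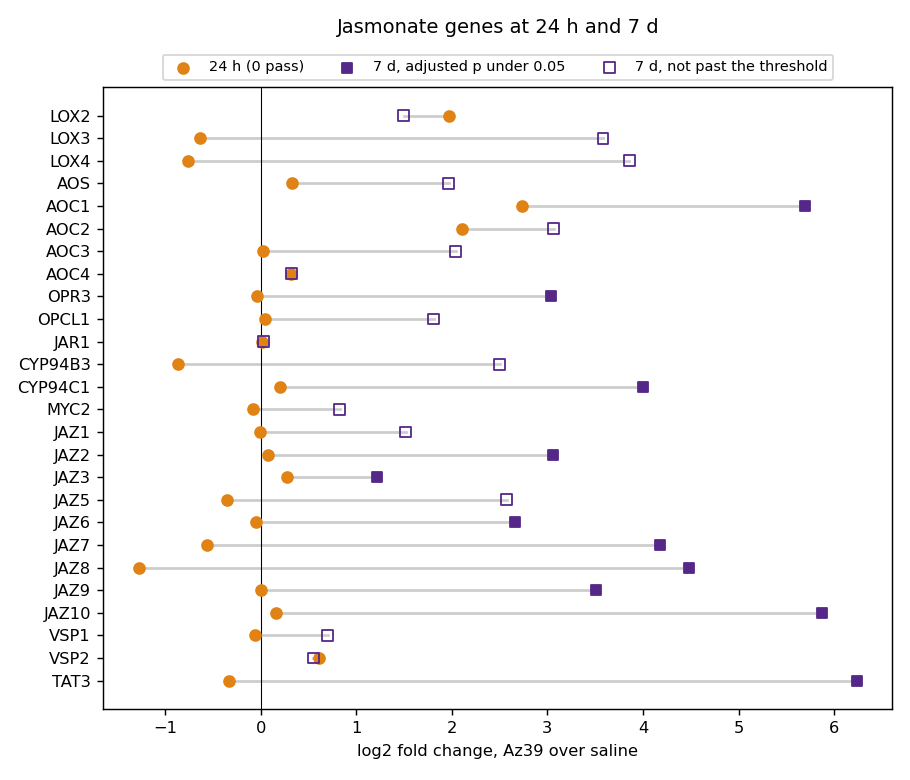
The log2 fold change of Az39 over saline (horizontal axis) is shown for the 26 jasmonate genes at 24 h (orange circles) and at 7 d (squares, filled where the adjusted p was under 0.05). The median is 0.01 for the circles and 2.62 for the squares. AOC1 and AOC2 are the genes at 2.74 and 2.11 at 24 h.

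For 8 genes (0.0424%) the response to Az39 differed between the times by the edgeR test of the difference, and all 8 were higher at 7 d. The count was 0 without either Az39 24 h library, without saline 24 h replicate 1 and with the replicate mark as a block, and DESeq2 called 373. The glutathione transferase gene GSTU5 had 9.98 and 10.4 CPM with Az39 at 24 h, against 13.7 and 12.16 CPM with saline. At 7 d it had 244 and 257 CPM with Az39, against 18.6 and 9.64 CPM with saline. PROPEP4, the precursor of a defence peptide, had 15.5 and 12.4 CPM with Az39 at 24 h, against 12.4 and 12.6 CPM with saline. At 7 d it had 55.6 and 65.9 CPM with Az39, against 10.8 and 8.95 CPM with saline. In both genes the 24 h libraries of the groups lay together and the 7 d libraries far apart.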

How the data were processed

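RNA was measured in whole roots by single-end RNA-seq, with 2 biological replicates per group. Per the submitters' processing notes, the authors aligned reads with HISAT2 2.2.1 and counted them with featureCounts on TAIR10; the deposited values are raw counts per gene. The library kit named in the labels does not mark strand, and no source used here gives the settings for strand or shared reads. Values of overlapping, antisense and near-identical genes are therefore uncertain. Of 21200 genes, 469 had no read and 18867 passed edgeR's expression filter (minimum count 10, total 15, proportion 0.7) over all 12 libraries. Of the gene IDs 21120 matched the RefSeq annotation. Counts were scaled by TMM and fitted in R 4.3.3 with edgeR 4.0.16 (quasi-likelihood F test, 6 group means, 6 residual degrees of freedom), with Benjamini-Hochberg adjustment over all tested genes. Alternatives used DESeq2 1.42.0 and limma 3.58.1. The fit was tested on simulated data. Standard errors derive from the F statistic, 95% intervals from its degrees of freedom, and ratios of low counts have exact intervals for counting error only.

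Genes named were the 10 smallest p, the 12 highest and 12 lowest fold changes with an unadjusted p under 0.05, mean log2 CPM of at least 1 and groups that did not overlap, up to 4 per list by p, a fixed set of 14 genes and the 8 smallest p for the difference between times. MBP1, whose p falls under the per-list rule, is given with its neighbours. Other genes were given as examples of levels, chosen after their values were seen. The members and the 29 lists, with 451 different genes tested, were chosen with earlier results of these data known. Some results are not reported here.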

Additional observations from a re-analysis of the deposited data

Results flagged for a closer look

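In 8 genes the response to Az39 differed between 7 d and 24 h by the edgeR test of the difference itself, in log2 units of 7 d minus 24 h with standard errors. GSTU5 differed by 4.49 ± 0.40 (adjusted p = 0.0114) and GSTU6, also a glutathione transferase gene, by 3.21 ± 0.31 (adjusted p = 0.0139). GSTU6 had 31.8 and 23.5 CPM with Az39 at 24 h, against 24.2 and 20.4 CPM with saline, and 178 and 133 CPM with Az39 at 7 d, against 13.0 and 14.0 CPM with saline. PROPEP4 differed by 2.46 ± 0.25 (adjusted p = 0.0154). AT3G62010 differed by 3.28 ± 0.36 (adjusted p = 0.0174) and had 29.4 and 31.4 CPM with Az39 at 24 h, against 36.5 and 40.5 CPM with saline. The esterase gene MES5 differed by 2.29 ± 0.25 (adjusted p = 0.0174) and had 13.9 and 14.0 CPM with Az39 at 24 h, against 12.04 and 13.7 CPM with saline.

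MGD1, which makes galactolipids of plastid membranes, differed by 2.37 ± 0.29 (adjusted p = 0.0384), with 18.5 and 18.0 CPM with Az39 at 24 h, against 19.0 and 14.3 CPM with saline. AT5G20190 differed by 2.12 ± 0.27 (adjusted p = 0.044) and had 67.9 and 56.6 CPM with Az39 at 24 h, against 59.2 and 67.3 CPM with saline. AT4G37710 differed by 7.89 ± 1.03 (adjusted p = 0.0443), a value that depends on the prior count, since at 24 h it had 0 and 2 reads with Az39, against 6 and 4 reads with saline.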

How the results depend on the processing

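The count of 0 genes called at 24 h was the same under each alternative run except DESeq2, which called 2, LTP4 and AT1G52100. The count of 8 genes whose response differed between times was less stable. DESeq2 called 373, the fit without both ipdc mutant libraries at 24 h 18, and testing for changes over 1.5-fold 5. With 1 library left out the count was 0 to 40, with 0 without either Az39 24 h library or without saline 24 h replicate 1. With the replicate mark as a block, 0 genes were called at 24 h and 0 for the difference. Over all tested genes, the deviations of same-numbered Az39 and saline libraries at 24 h correlated at -0.012. A single value over all genes cannot decide whether same-numbered libraries were handled together. Some genes, such as ACS6 and ERF109, split by replicate number in both groups. The labels do not say whether the libraries are paired. Of 52 genes followed, 43 kept their sign in each alternative. Many of the 52 were named because their groups did not overlap, so leaving out 1 library could hardly turn their sign. The 43 are therefore no measure of stability. The 9 genes that changed sign were ones whose groups overlapped. NRT2.1 was 0.0353 with the block, 0.67 without the ipdc mutant libraries and saline replicate 2 (a setting chosen after seeing the data), and -1.02 to 0.67 with 1 library left out. In that same added setting FRK1 was 0.30 and PYK10 0.13. PYK10 was 0.0016 with RLE scaling, 0.0015 with DESeq2, 0.0000 with limma-voom and 0.0005 with the block, and IRT1 was -0.0295 with limma-voom. With 1 library left out, FRK1 ranged over -2.49 to 0.30, GH3.3 -0.19 to 1.04, CYP71A12 -0.72 to 3.11, LBD16 -0.34 to 0.64, PYK10 -0.15 to 0.13, IRT1 -0.33 to 0.38, JAZ10 -0.37 to 0.58 and LTP3 -0.15 to 1.07. The cause was not tested. Depth and 2 libraries per group limit genes of low level most.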
